A study of Mus musculus with 6 samples.

Results

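Genes known as markers of the choroid plexus were picked by symbol and followed across the deposited table, and all 10 were found among its 27884 genes: Ttr, Clic6, Kcne2, Kl, Folr1, Otx2, Aqp1, Slc4a5, F5 and Sostdc1. The tissue was the preoptic area of the hypothalamus of female NuTRAP mice carrying Pnoc-Cre, aged 17 to 18 weeks. In these mice cells that express Cre under control of the prepronociceptin gene carry EGFP on their ribosomes. Input and IP libraries were made from each of 3 pools of 3 mice: input held the RNA of the whole punch, and IP the RNA bound to ribosomes captured with an antibody against GFP. Input and IP of a pool are called pool 1, 2 and 3 here after the replicate numbers. All 6 libraries come from mice of one genotype, so the input is a tissue reference and not a Cre-negative control. A pool hides differences between its mice. The p-values of IP against input measure the spread between these pools, but where the pool is a term they rest on the spread left within pools, each of which is 1 biological sample.

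The choroid plexus is a folded epithelium that hangs into the brain ventricles, with fenestrated vessels in its core, and secretes cerebrospinal fluid. Its cells move sodium, chloride, bicarbonate and water from blood to ventricle, carry vitamins and hormones into the fluid, and join at their base the ependyma that lines the ventricle walls. The preoptic area flanks the third ventricle, but choroid plexus is not a part of it. The epithelium is known for very high transthyretin expression and for dependence on the homeobox factor OTX2.

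Total counts ran from 48204567 to 53056642 per library, and levels are given as CPM (a gene's counts relative to the total of its library, scaled for library composition by TMM). Pnoc had 7.51, 11.0 and 13.2 CPM in the inputs of pools 1, 2 and 3 and 47.7, 43.1 and 41.1 CPM in the IPs, which checks the library labels. Of 10 genes listed for preoptic neurons 3 rose in IP and 0 fell in edgeR's test, against 12.9% and 17.1% of all genes, and all 10 had counts in every library. The count that rose was 6 in DESeq2, 5 with the pool as a block, and 1 without IP replicate 3 or without both libraries of pool 2 or 3. Of the values from 1 to 50 counts, between 65.2% and 69.8% were even numbers in each library. Single counts at this level are therefore not independent molecules, and low values are less precise than their counts look.

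Kcne2 and Folr1 are shown by the bases before their annotated starts because their levels followed Ttr most closely over the 6 libraries among the 6 other markers that were abundant enough to be ranked. Each sequence is the 200 bases upstream of the start of the canonical GENCODE M39 transcript on GRCm39, the build of the table, read on the gene's own strand. Kcne2 is at chr16:92089019-92089218 (plus strand) and Folr1 at chr7:101520015-101520214 (minus strand). Capitals mark the letters GGTTAAT, which both hold.
Kcne2: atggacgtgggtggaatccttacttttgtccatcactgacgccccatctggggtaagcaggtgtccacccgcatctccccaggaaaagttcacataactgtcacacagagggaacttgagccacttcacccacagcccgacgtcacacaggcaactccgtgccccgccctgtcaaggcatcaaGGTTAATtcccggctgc
Folr1: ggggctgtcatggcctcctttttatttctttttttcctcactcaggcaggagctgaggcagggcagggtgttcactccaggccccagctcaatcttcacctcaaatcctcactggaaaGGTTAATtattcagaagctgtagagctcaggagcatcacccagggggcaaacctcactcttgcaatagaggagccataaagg
The letters GGTTAAT, searched on both strands and chosen after these sequences had been read, begin 17 bases before the start of Kcne2 and 82 bases before that of Folr1. They occur in 2 of the 10 markers' windows, the 2 printed here, and in 1.33% of 21770 protein-coding windows of the same length. Because the letters were picked from these 2 windows, the count of 2 was set by that choice and measures no excess. TAATCC, the core letters bound by OTX proteins, occurs in 0 of the 10 windows on either strand and in 5.48% of all windows. TATAAA occurs in 1 of the 10, that of Slc4a5, and in 9.57% of all windows. These are letter matches in one short window and say nothing of binding elsewhere.

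Input of pool 3 was the highest of the inputs for all 10 markers, and this was so for 24.7% of all 18640 genes tested. IP of pool 3 was the highest of the IPs for 8 of 10, the exceptions being Clic6 and Otx2, and for 34.0% of all genes. Together the 10 markers took 64.6 CPM of the unscaled library total in input 1 (95% exact binomial interval 62.4 to 66.9), 48.8 in input 2 (47.0 to 50.7) and 500.0 in input 3 (493 to 506). In the IPs of pools 1, 2 and 3 they took 37.4, 16.9 and 96.1 CPM (35.7 to 39.2, 15.8 to 18.1 and 93.4 to 98.8). These intervals cover counting error only, and they treat counts as independent.

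**Figure D1:**
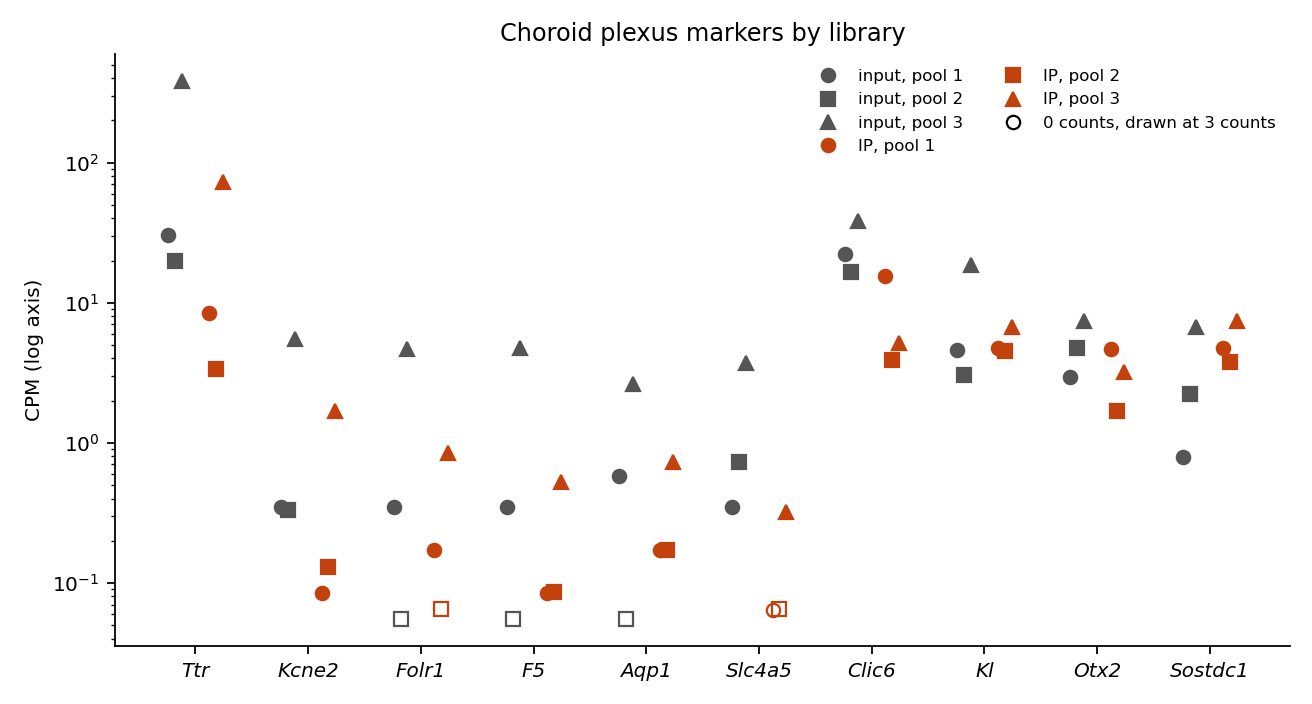
Level of each of the 10 choroid plexus markers in the 6 libraries, in CPM on a log axis; grey symbols are inputs, orange symbols IPs, the symbol shape gives the pool, and open symbols are libraries with 0 counts drawn at the level of 3 counts. Among inputs and among IPs, the triangles of pool 3 stand apart from the other pools for the 6 genes on the left. They do so less or not at all for Clic6, Kl, Otx2 and Sostdc1. For Slc4a5, IP 3 lies below inputs 1 and 2.

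Ttr encodes transthyretin, the carrier of thyroxine and of retinol-binding protein that the epithelium secretes into the fluid (ENSMUSG00000061808, chromosome 18, 20798337 to 20807378, plus strand, mm39). It had 30.4, 19.9 and 382 CPM in inputs 1, 2 and 3 and 8.40, 3.36 and 72.9 CPM in the IPs of the same pools. Input 3 was 12.5-fold above the next input and IP 3 was 8.68-fold above the next IP, so that IP 3 lay above inputs 1 and 2 and the groups overlapped. By FPKM, a level per length of gene, Ttr ranked 84 of all genes in input 3, against 2034 and 3149 in inputs 1 and 2. It held 80.5% of the 10 markers' counts in input 3 and 73.3% in IP 3, and between 19.0% and 48.4% in the other libraries.

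Kcne2, Folr1 and Aqp1, a channel subunit, a receptor and a water channel of the epithelium, were also highest in pool 3, at far lower levels than Ttr. Kcne2, the beta subunit that partners KCNQ1 and other potassium channels at the apical membrane (ENSMUSG00000039672, chromosome 16, 92089277 to 92095017, plus strand), had 0.348, 0.331 and 5.51 CPM in the inputs and 0.0853, 0.130 and 1.69 CPM in the IPs. Folr1, the folate receptor that carries folate from blood to fluid (ENSMUSG00000001827, chromosome 7, 101507538 to 101519995, minus strand), had 0.348, 0 and 4.66 CPM in the inputs and 0.171, 0 and 0.846 CPM in the IPs. Aqp1, the apical water channel (ENSMUSG00000004655, chromosome 6, 55313417 to 55325540, plus strand), had 0.580, 0 and 2.63 CPM in the inputs and 0.171, 0.173 and 0.725 CPM in the IPs. In each of the 3 genes both libraries of pool 3 exceeded all libraries of the other pools. A count of 0 allows up to 0.0551 CPM in input 2 and 0.0651 CPM in IP 2, at 3 counts, if counts are independent; with the excess of even counts the limit may be higher. Folr1 overlaps Anapc15 on the other strand, and reads of the pair cannot be told apart where the counting did not use strand. Anapc15 was lowest in pool 3 among the inputs (10.1, 13.5 and 8.58 CPM) but highest in pool 3 among the IPs (19.2, 16.5 and 21.2 CPM).

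Slc4a5 and F5 were highest in the input of pool 3 and below 1 CPM in the other libraries. Slc4a5, a sodium bicarbonate cotransporter of the apical membrane (ENSMUSG00000068323, chromosome 6, 83196810 to 83281927, plus strand), had 0.348, 0.735 and 3.69 CPM in the inputs, 0.322 CPM in IP 3, and 0 counts in IPs 1 and 2. F5, coagulation factor V (ENSMUSG00000026579, chromosome 1, 163979407 to 164047846, plus strand), had 0.348, 0 and 4.72 CPM in the inputs and 0.0853, 0.0867 and 0.524 CPM in the IPs. For Slc4a5 all IPs lay below all inputs, while for F5 the groups overlapped because input 2 had 0 counts.

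The remaining 4 markers were present in all 6 libraries, and their input 3 stood less far above the next input. It was 1.56-fold (Otx2) to 4.03-fold (Kl) above, against 4.54-fold (Aqp1) to 15.8-fold (Kcne2) for the other markers. Clic6, a chloride intracellular channel protein (ENSMUSG00000022949, chromosome 16, 92282624 to 92338131, plus strand), had 22.1, 16.5 and 38.5 CPM in the inputs and 15.5, 3.92 and 5.16 CPM in the IPs. All IPs lay below all inputs, and IP 1, not IP 3, was the highest IP. Kl, klotho, the co-receptor for FGF23 (ENSMUSG00000058488, chromosome 5, 150876072 to 150917282, plus strand), had 4.58, 3.05 and 18.5 CPM in the inputs and 4.73, 4.55 and 6.67 CPM in the IPs. Its input 3 stood 4.03-fold above the next input, while IP 3 was only 1.41-fold above the next IP.

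Otx2, the homeobox gene that specifies the epithelium (ENSMUSG00000021848, chromosome 14, 48895134 to 48911276, minus strand), had 2.96, 4.74 and 7.40 CPM in the inputs and 4.69, 1.69 and 3.18 CPM in the IPs. Its groups overlapped and the order of the pools differed between input and IP. Its antisense gene Otx2os1, too low to be tested, had 45 counts in input 3 and between 5 and 18 in the other libraries. Sostdc1, a secreted antagonist of BMP and Wnt signals (ENSMUSG00000036169, chromosome 12, 36364138 to 36368451, plus strand), had 0.792, 2.24 and 6.75 CPM in the inputs and 4.78, 3.75 and 7.40 CPM in the IPs. It was the 1 marker whose IP was above its input in all 3 pools.

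The markers differed in their proportion to Ttr. Per 1000 Ttr counts, Kcne2 had 11.4, 16.6 and 14.4 counts in inputs 1, 2 and 3 and 10.2, 38.7 and 23.2 in the IPs. Clic6 had 727, 829 and 101 in the inputs and 1850, 1170 and 70.7 in the IPs. Kl had 150.0, 153 and 48.4 in the inputs and 563, 1350 and 91.4 in the IPs. Relative to Ttr, Kcne2 thus moved within a narrow range over the inputs, though on only 18 counts each in inputs 1 and 2. Clic6, Kl, Otx2 and Sostdc1 were all lowest relative to Ttr in pool 3, input and IP alike, and so kept no fixed proportion to it. For Otx2 the ratio was 19.4 in input 3 against 97.1 and 238 in inputs 1 and 2, and for Sostdc1 it was 17.7 against 26.0 and 112.

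Differences between pools were tested with the pool as a term beside IP or input in edgeR's quasi-likelihood test, a comparison added after these values had been seen. Of 10 markers 3 passed after Benjamini-Hochberg adjustment over all genes, against 1.35% of all genes tested: Ttr (adjusted p = 9.79e-06), Kcne2 (adjusted p = 0.013) and Folr1 (adjusted p = 0.0194). At an unadjusted p under 0.05 there were 8 of 10, against 9.55% of all genes, and the exceptions were Otx2 and Aqp1. The count of 3 became 0 of 7 tested without both libraries of pool 3 and 5 without those of pool 1. It was 6 without IP replicate 1, IP replicate 2 or input replicate 1, 2 without input replicate 3, 8 without the low-count filter and 1 of 5 tested under the stricter filter.

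Few genes of any kind set pool 3 apart to this degree. Input 3 was at least 4-fold above both other inputs, on CPM plus 0.5, for 8 of 18640 genes, or 0.0429%. Ttr, Kcne2, Folr1 and F5 were 4 of them. Ecrg4 and Tmem72, a secreted peptide gene and a membrane protein gene of the same epithelium, were a further 2, and the last 2 were Lsm5 and Pou4f1, named after their values were seen. Pou4f1, a transcription factor known from the medial habenula, had 0, 0 and 1.55 CPM in the inputs. By the same measure input 1 stood above the others for 73 genes and input 2 for 4, with 0 markers among either.

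**Figure D2:**
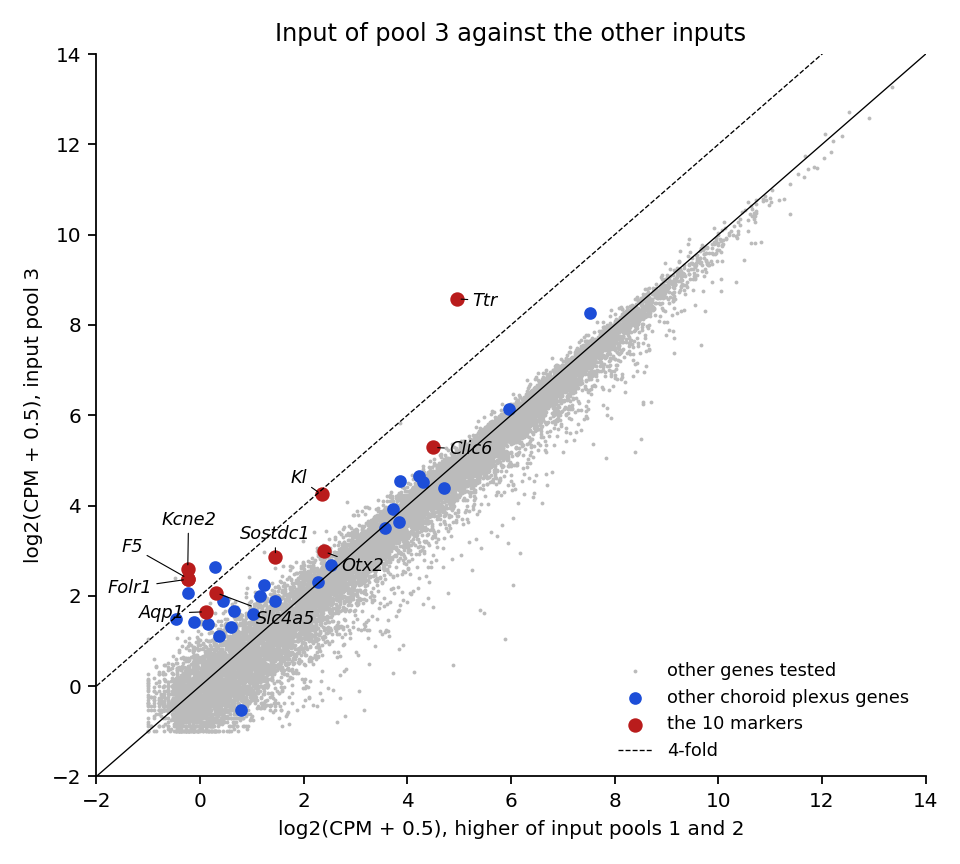
Each gene tested by its level in the input of pool 3 (vertical axis) and the higher of its levels in the inputs of pools 1 and 2 (horizontal axis), both as log2(CPM + 0.5); the solid line is equality and the dashed line a 4-fold excess in pool 3. Ttr, Kcne2, Folr1 and F5 (red) lie beyond the dashed line, as do 2 of the other choroid plexus genes (blue) and 2 further genes.

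Of 30 other genes of the epithelium that were listed, 29 were in the table and 25 were tested. Input 3 was the highest input for 21 of these 25, against 24.7% of all genes. Tmem72 had 0.348, 0 and 3.67 CPM in the inputs, Ecrg4 0.715, 0.294 and 5.68 CPM, and Cldn2, a pore-forming claudin of the epithelial tight junction, 0.425, 0.0735 and 2.18 CPM. Kcnj13, an apical potassium channel, stayed at or below 0.387 CPM in every library and was not tested. Enpp2, which makes lysophosphatidic acid in plexus and also in oligodendrocytes, had 177, 183 and 308 CPM in the inputs. It was the 1 gene of the 25 tested past the pool test (adjusted p = 0.0343, edgeR), against 1.35% of all genes. At an unadjusted p under 0.05 there were 9 of 25, against 9.55% of all genes. Lmx1a was lowest in input 3, at 0.193 CPM against 0.348 and 1.23 CPM.

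Summed over each list, inputs 1, 2 and 3 held 39.0, 43.8 and 63.5 CPM of 10 ependymal genes and 169, 103 and 123 CPM of 8 tanycyte genes. They held 23.5, 12.2 and 19.4 CPM of 8 leptomeningeal fibroblast genes, 30.3, 19.4 and 25.2 CPM of 9 endothelial genes and 2890, 1940 and 2100 CPM of 10 astrocyte genes. The 10 choroid plexus markers summed to 62.8, 47.6 and 474 CPM. Of the 5 other cell type sums, that of ependymal genes was also highest in pool 3. Foxj1, the regulator of motile cilia, had 12.2, 9.75 and 18.3 CPM in the inputs. Of the 10 ependymal genes 0 passed the pool test in edgeR, against 1.35% of all genes. At an unadjusted p under 0.05 there was 1, against 9.55% of all genes. Of 10 genes listed for preoptic neurons 8 also had input 3 as their highest input, against 24.7% of all genes. Their sums were 239, 284 and 311 CPM. The part of the punch's position in these differences was not tested. In bulk tissue, fewer cells of a type and less RNA per cell cannot be told apart.

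**Figure D3:**
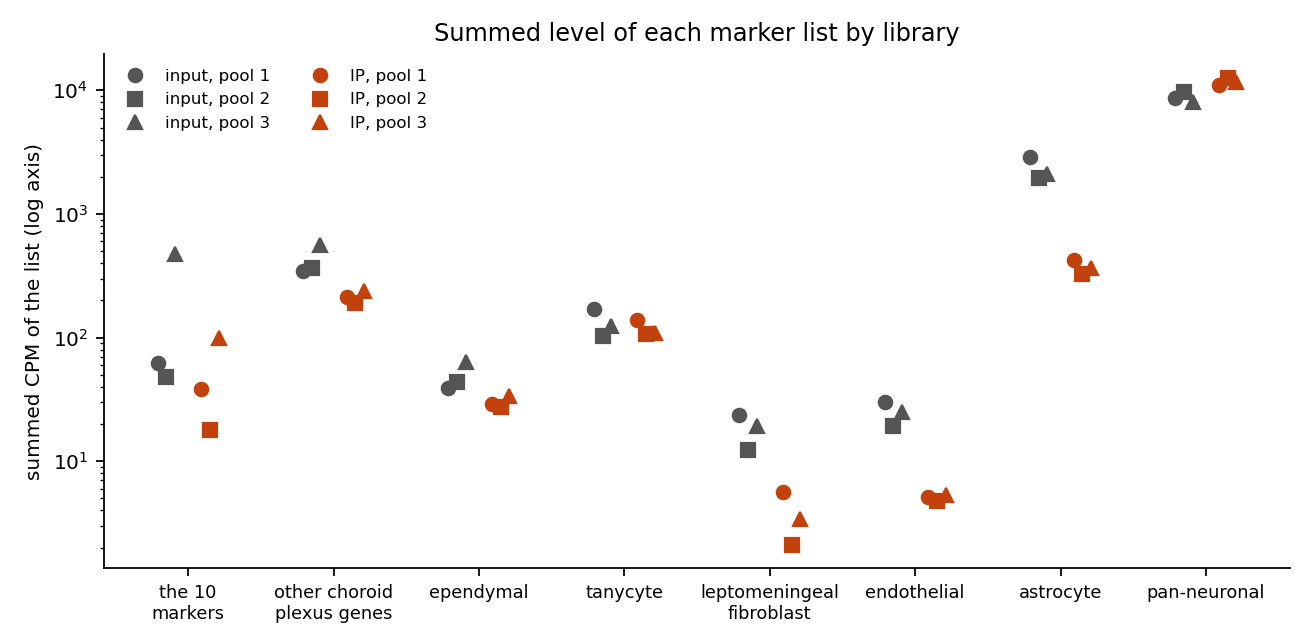
Summed CPM of each marker list in the 6 libraries, on a log axis, with inputs in grey, IPs in orange and the pool given by the symbol shape. The sum of the 10 choroid plexus markers runs from 47.6 to 474 CPM over the inputs, and that of the ependymal list from 39.0 to 63.5 CPM.

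Within pools the direction of the difference between IP and input depended on the marker and the pool. Ttr in IP was 27.6%, 16.8% and 19.1% of its input level in pools 1, 2 and 3, or 3.62-, 5.93- and 5.23-fold lower. Kcne2 was 4.08-, 2.54- and 3.25-fold lower. In pool 3, where every marker had at least 136 counts in input, 9 of 10 were lower in IP, from 11.5-fold for Slc4a5 and 9.0-fold for F5 to 2.33-fold for Otx2. Sostdc1 was 1.10-fold higher there.

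In pools 1 and 2 the low counts give coarse ratios. In pool 2 only 5 of 10 markers were lower in IP: Ttr, Clic6, Kcne2, Otx2 and Slc4a5, the last with 40 counts in input and 0 in IP. Aqp1 and F5 had 0 counts in input 2 and 8 and 4 counts in IP 2, and Folr1 had 0 in both. Clic6 was 1.43-fold lower in pool 1, 4.21-fold in pool 2 and 7.46-fold in pool 3. Kl was 1.03- and 1.49-fold higher in IP in pools 1 and 2 and 2.77-fold lower in pool 3, and Otx2 was 1.59-fold higher in pool 1 and 2.80- and 2.33-fold lower in pools 2 and 3. Sostdc1 was 6.03-, 1.67- and 1.10-fold higher in IP. Ttr thus kept a like ratio in each pool, and Clic6, Kl, Otx2 and Sostdc1 did not. Kcne2 was lower in IP in each pool. It had 18 counts in input and 4 in IP in pool 1, and 18 and 6 in pool 2, too few to show a kept ratio.

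**Figure D4:**
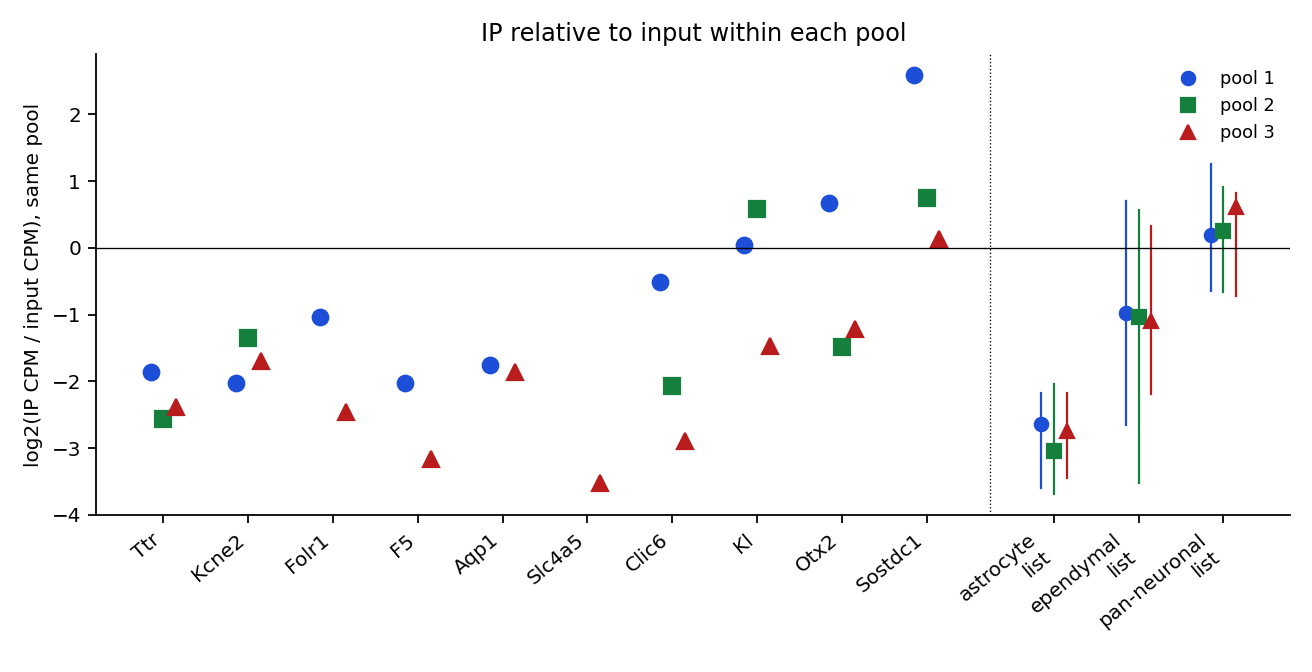
The log2 ratio of IP to input CPM in the same pool for each marker with more than 3 counts in both libraries, and to the right the median (symbol) and range (line) of the astrocyte, ependymal and pan-neuronal lists. Slc4a5 has 1 point because it had 0 counts in IPs 1 and 2. The lists' medians and ranges cover genes with at least 20 counts in input and more than 0 in IP. Ttr lies between -1.86 and -2.57 in the 3 pools and Sostdc1 between 0.13 and 2.59.

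In pool 3 the median log2 ratio of the 10 markers was -2.12, with a range from -3.52 to 0.133. It was -2.74 for 10 astrocyte genes, from -3.45 to -2.18, and -1.10 for 9 ependymal genes with at least 20 counts in input. For 10 pan-neuronal genes it was 0.607, and over all genes tested -0.0586. The markers' median lay between those of astrocyte and ependymal genes in pool 3. In pool 1 it was -0.232 over the 6 markers with at least 20 counts in input, above the ependymal (-0.982) and astrocyte (-2.64) medians. The minimum excluded Kcne2, Folr1, F5 and Slc4a5, each with 18 counts in input 1 and fewer in IP 1. Kcne2, Folr1 and F5 had log2 ratios of -2.03, -1.03 and -2.03, and Slc4a5 had 0 counts in IP 1. In pool 2 the median was -1.49 over 5 markers. Slc4a5, with 40 counts in input 2 and 0 in IP 2, has no ratio and was left out. Genes with 0 counts in IP were left out of the other medians in the same way. The pools' medians thus rest on unlike sets of markers. These differences between lists were not tested.

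Over the 3 pools without a term for the pool, 1 of 10 markers fell in IP in edgeR's quasi-likelihood test, against 17.1% of all genes. Clic6 had 25.7 ± 11.4 CPM in input and 8.19 ± 6.36 CPM in IP (SD, n = 3). Its log2 difference was -1.65 ± 0.53 (SE), with an adjusted p of 0.0459 in edgeR. Its call was lost in DESeq2 (adjusted p = 0.0577) and without input replicate 1 or 3, IP replicate 2 or 3, or both libraries of pool 2 or 3. No marker rose, against 12.9% of all genes (0 at an unadjusted p under 0.05 in edgeR and 0 in DESeq2). In DESeq2 0 of the 8 markers with an adjusted p, all but Ttr and Kcne2, fell, against 16.2% of all genes. In edgeR 2 of the 10 had an unadjusted p under 0.05. All IPs were below all inputs for 2 of 10, Clic6 and Slc4a5, against 26.0% of all genes. The median log2 fold change of the 10 was -1.67, beside -0.07 for all genes.

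With the pool as a block 4 of 10 markers fell, against 19.4% of all genes, and 0 rose, against 15.2%. Ttr had a log2 fold change of -2.27 ± 0.17 (SE, adjusted p = 8.67e-06 in edgeR), where the fit without the block gave -2.35 ± 1.34 (SE, adjusted p = 0.225). The SE of Ttr was thus far smaller once its input and IP of the same pool were compared. Clic6 stood at -1.83 ± 0.38 (SE, adjusted p = 0.00415), Slc4a5 at -4.67 ± 1.01 (SE, adjusted p = 0.0054) and Kcne2 at -1.67 ± 0.56 (SE, adjusted p = 0.0415) in the same fit. Without the block Slc4a5 and Kcne2 had an adjusted p of 0.0865 and 0.394. Folr1, F5 and Aqp1 had log2 fold changes of -1.79, -1.58 and -0.63 with the block and did not pass (adjusted p = 0.13, 0.328 and 0.734, edgeR). Sostdc1 stood at 1.09 ± 0.45 (SE, adjusted p = 0.0839), Otx2 at -0.69 ± 0.43 and Kl at -0.29 ± 0.37 (SE, adjusted p = 0.247 and 0.59).

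In the fit without the block, leaving out input 3 changed the sign of several values. That fit kept IP 3, whose own input was then missing. Within pools, Ttr (log2 ratios of -1.86, -2.57 and -2.39) and Kcne2 (-2.03, -1.35 and -1.7) were lower in IP in each pool. Folr1, F5 and Aqp1 were lower in pools 1 and 3, and Kl in pool 3 alone. Without input replicate 3 the log2 fold change of Ttr was 0.21, of Kcne2 0.94, of Folr1 1.03, of F5 0.49, of Aqp1 0.37 and of Kl 0.53, and none of these passed. In the authors' deposited table Ttr and Kcne2 carry no p-value and an adjusted p of 1, at log2 fold changes of -2.32 and -1.67. The DESeq2 fit made here also gave both genes no p-value. Without a p-value behind it, the authors' adjusted p for these genes is not a tested absence of difference.

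Among the other choroid plexus genes 5 of 25 tested fell and 1 rose in edgeR's test, against 17.1% and 12.9% of all genes. With the block 7 fell and 1 rose, against 19.4% and 15.2%. Enpp2 fell by 2.71 and Car14, a membrane carbonic anhydrase, by 3.87 on the log2 scale (adjusted p = 0.00115 and 0.00197). Slc29a4, a monoamine transporter also found in neurons, rose by 0.75 (adjusted p = 0.024). The count of genes that fell was 3 without input replicate 3 or without both libraries of pool 3, and Slc29a4 lost its call without any one IP, input replicate 3 or both libraries of pool 3. The median log2 fold change of the list was -1.31.

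Genes for ion transport that secretion of the fluid uses, most of which other brain cells also express, were listed beside the markers. Car12, Car14, Kcnj13 and Trpv4 are also in the list of other choroid plexus genes. Car12 and Car14 fell and are counted in both lists. Of 20 listed, 18 were tested and 10 fell, against 17.1% of all genes, or 5 without both libraries of pool 3; 0 rose (0 at an unadjusted p under 0.05 in edgeR and 0 in DESeq2), the median difference being -1.08 on the log2 scale. Car2, cytosolic carbonic anhydrase, fell by 2.27 and Slc12a2, the sodium-potassium-chloride cotransporter, by 2.07 on the log2 scale (adjusted p = 5.53e-05 and 0.000196, edgeR). Slc12a2 had 79.3, 59.4 and 76.4 CPM in the inputs. Of the 18 tested 0 passed the pool test in edgeR, against 1.35% of all genes. At an unadjusted p under 0.05 there were 7 of 18, against 9.55% of all genes.

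Among 16 genes listed as partners of the markers 12 were tested, of which 4 fell and 1 rose, against 17.1% and 12.9% of all genes. Without both libraries of pool 3 the count that fell was 2. The median difference was -1.14 on the log2 scale. Slc46a1, the proton-coupled folate transporter that works beside Folr1, rose by 0.66 (adjusted p = 0.0435, edgeR), a call lost without any one of the 6 libraries, without any one pool and with library totals alone. Ttpa, the tocopherol transfer protein, and Lrp4, a receptor that binds sclerostin-family proteins, fell by 2.78 and 2.63 on the log2 scale (adjusted p = 0.000642 and 0.00243). Kcnq1, the channel partner of Kcne2, had too few counts to be tested. Kcnq1, Kcna3 and Slc5a3 are also in the ion transport list.

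Kcne2 and Clic6 lie on the same strand of chromosome 16, with 187606 bases between them, and the genes tested between them were higher in IP. Smim11 had 8.36, 10.3 and 9.84 CPM in the inputs and 22.3, 18.9 and 18.7 CPM in the IPs, and rose by 1.07 on the log2 scale (adjusted p = 0.00282, edgeR). Rcan1, a regulator of calcineurin, rose by 0.57 (adjusted p = 0.00723, edgeR) and its inputs lay between 81.9 and 89.3 CPM. The other 3 genes starting there, too low to be tested, 2410124H12Rik, 1700048M11Rik and Gm46555, had at most 18 counts in any library.

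Likeness to Ttr over the 6 libraries was measured as Pearson's r of log2(CPM + 0.5) among 14917 further genes with a mean of at least 1 CPM. The libraries share pools and groups, so r is a description only. Kcne2 ranked 9 (r = 0.946) and Folr1 18 (r = 0.921), then Kl 164, Otx2 571, Clic6 1436 and Sostdc1 4546 (r = 0.322). F5, Aqp1 and Slc4a5 were below that minimum and were not ranked. The 10 genes outside the markers with the highest r were Ercc4, 1700016K19Rik, Utp25, Myc, Mocs1, A330041J22Rik, Psmb8, Cep120, Trpv4 and Ccdc96, with r from 0.981 to 0.945. A high r can go with small differences, as for Ercc4 with 21.7, 22.3 and 29.3 CPM in the inputs. Trpv4, a cation channel of the plexus epithelium, had 0.850, 0.588 and 3.17 CPM in the inputs and 0.768, 0.304 and 1.13 CPM in the IPs.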

How the data were processed

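Read counts per gene, FPKM, size-factor normalized signal, log2 fold changes and p-values were made and deposited by the authors with HISAT2, featureCounts and DESeq2 on mm39, per the submitters' processing notes and the file headers; versions and the strand setting are not given in the sources used here. Only the deposited counts entered the tests; the deposited FPKM served to rank Ttr by level. Genes were tested with edgeR 4.0.16 (glmQLFit, glmQLFTest; R 4.3.3), TMM scaling, filterByExpr, group as the one factor, two-sided, with Benjamini-Hochberg adjustment over 18640 genes and a threshold of 0.05. SE is the log2 fold change divided by the square root of F. Input and IP of a number come from the same pool, per the series' design text, and are paired: deviations from the group means correlated at 0.264, 0.144 and 0.102 within pools 1, 2 and 3, and from -0.22 to 0.0917 across pools, the last between IP 3 and input 2. Alternatives were DESeq2 1.42.0, other scalings and filters, the replicate block and left-out libraries or pools. Fits were tested on simulated data. The markers and lists were chosen with earlier results of these data known. Named genes were the 10 markers, Pnoc, genes overlapping a marker or between Kcne2 and Clic6, the 2 smallest adjusted p per direction of each list, and the 10 genes most like Ttr; Lsm5, Pou4f1, Iapp and further members of the lists were named after their values were seen.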

Additional observations from a re-analysis of the deposited data

How the results depend on the processing

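Of the 10 choroid plexus markers 1 fell without the replicate block, 4 with the block, 2 without the low-count filter, 0 in DESeq2, 2 without both libraries of pool 1, and 0 without those of pool 2 or pool 3; with 1 library left out the count lay between 0 and 1. The count of markers that rose was 0 in each of these. For the other choroid plexus genes, 5 fell, or 3 without both libraries of pool 3, and from 3 to 7 with 1 library left out; 1 rose, or 0 without both libraries of pool 3, and 0 to 1 with 1 library left out. The markers that differed between pools numbered 3, or 8 without the low-count filter, 1 (of 5 tested) under a filter of 1 CPM across a whole group, 5 without both libraries of pool 1, 0 without those of pool 3, and from 2 to 6 with 1 library left out. With 1 library left out the log2 fold change ran from -4.61 to 0.21 for Ttr, -4.22 to 0.94 for Kcne2, -4.24 to 1.03 for Folr1, -2.61 to 0.37 for Aqp1, -4.25 to 0.49 for F5 and -1.10 to 0.53 for Kl, the positive end being without input replicate 3 in each; Kl was also positive (0.29) without both libraries of pool 3. The cause of these changes was not tested beyond the values by pool. Where the block leaves 2 residual degrees of freedom, its SE rests on the spread shared across genes. Markers below 1 CPM in 2 pools rest on few counts, and 5 of 10 did not reach the stricter filter.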

Other observations

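In input replicate 1, Kcne2, Folr1, F5 and Slc4a5 each had 18 counts, and Kcne2 also had 18 counts in input replicate 2. Tmem72 and Lmx1a, of the other choroid plexus genes, had 18 counts in input replicate 1 as well. The share of all genes at this count was not taken, so it cannot be called particular to the markers. Iapp, the amylin precursor, was among 5 genes whose IP of pool 3 stood at least 4-fold above both other IPs, at 3.24 CPM against 0 and 0.347 CPM; Ttr was another.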
